A study of Homo sapiens with 24 samples.

Results

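The comparison described here set HEK293 cells made to express the microRNA (miRNA) miR-122 against the same cells with the empty vector. It used 4 of the 24 RNA-seq libraries of the series, 2 with miR-122 and 2 with the empty vector, all from the first of 2 batches. All 14348 of 29794 counted genes with enough reads entered the test. The study placed single miRNAs in these cells to ask which genes each miRNA lowers and which genes change further downstream, and it used miR-1 and miR-122 as controls for each other.

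The cells were Flp-In T-REx 293, a line derived from human embryonic kidney. Both groups were transduced with a lentivirus in which a doxycycline-inducible CMV promoter drove GFP. In the miR-122 cells a designed hairpin with the mature miR-122 sequence in an artificial backbone sat in the intron ahead of GFP, and the control vector held the same GFP without a hairpin. Both were selected for 6 days in geneticin at 1 mg/mL, and both then received doxycycline at 1 µg/mL for 7 days, so the drug was shared by the groups. The levels therefore describe a steady state after a week in selected pools of cells, where a smaller change in every cell and a larger change in a share of the cells cannot be told apart. The 2 miR-1 libraries of the batch were made in the same way. Libraries were made from polyadenylated RNA, from 1000 ng of total RNA each, and per the study's methods the biological replicates were transduced and kept apart from each other.

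MiR-122 is the most abundant miRNA of hepatocytes and is nearly absent from most other cell types. Like other animal miRNAs it is loaded into an Argonaute protein and pairs, mainly through its seed near the 5′ end, with 3′UTRs of mRNAs, which are then deadenylated, decay faster and are translated less. In liver it is known for its ties to cholesterol and fatty acid metabolism and for restraining genes that hepatocytes keep low.

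The mature miRNAs are shown first because the classes of genes below follow from them. Sequences are from RefSeq on GRCh38.p14, and capitals mark the seed, positions 2 to 8 counted from the 5′ end.
miR-122-5p: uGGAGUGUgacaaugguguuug
miR-1-3p: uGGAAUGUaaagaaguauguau
MiR-122-5p comes from MIR122 at chr18:58451088-58451109 on the plus strand. The seeds of the 2 miRNAs differ at a single position, G5A, so a site that pairs with the whole seed of one does not pair with the whole seed of the other.

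A match of 8 bases to miR-122 (an 8mer) pairs with positions 2 to 8 and has an A opposite position 1. The 7mer-m8 lacks that A, the 7mer-A1 lacks the pair at position 8, and the 6mer lacks both. The windows below are the 22 bases of the 3′UTR opposite the miRNA in genes whose values follow, on GRCh37 and 5′ to 3′ on the strand of the gene, with the match in capitals.
SFT2D1, 8mer, chr6:166733622-166733643, minus strand: cttttccccataaaACACTCCA
RABL6, 8mer, chr9:139735586-139735607, plus strand: ggcactcctcccaaACACTCCA
GALNT3, 8mer, chr2:166604655-166604676, minus strand: ttttagtctgtaatACACTCCA
CLIC4, 8mer, chr1:25167658-25167679, plus strand: tctttaatttggagACACTCCA
PKM, 8mer, chr15:72491464-72491485, minus strand: ctgtcctgcagcaaACACTCCA
GYS1, 8mer, chr19:49472403-49472424, minus strand: acccagtccgccaaACACTCCA
SLC7A1, 8mer, chr13:30087519-30087540, minus strand: tccatgaaattgtgACACTCCA
ALDOA, 8mer, chr16:30081546-30081567, plus strand: ccaggctgcccccaACACTCCA
ARL2, 7mer-m8, chr11:64789406-64789427, plus strand: agccggccaaactaACACTCCc
SLC1A5, 7mer-m8, chr19:47278230-47278251, minus strand: ccacaataacagaaACACTCCc
MTHFD2, 7mer-A1, chr2:74441382-74441403, plus strand: ctgtgtcacaaacagCACTCCA
The 8 windows with an 8mer share the 8 capital bases and little before them.

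Reads in exons summed to between 20153452 and 21138186 in the 4 libraries, and mitochondrial genes took 1.82% to 2.01% of them. The 2 empty vector libraries differed more from each other (chi-square per degree of freedom 4.28) than the 2 miR-122 libraries (1.93) or the 2 miR-1 libraries (1.81). Of 14 HEK293 and kidney progenitor markers, 13 had enough reads to be tested, with SALL1 at 44.3 to 48.3 CPM (counts scaled to the library total), while PAX8 had 3 reads or fewer in each library. VIM, for vimentin, was the 1 marker called, lower by 0.13 on the log2 scale (adjusted p 0.035). Of 28 hepatocyte markers, 9 had no read in any of the 4 libraries, ALB had 1 read or none, and the summed level of the list was 75.4 to 83.9 CPM, most of it CPS1 and FOXA1. None of the 8 hepatocyte markers tested was called, and neither were the 5 tested markers of other cell types. Over all genes tested 5.92% were called, so the lack of calls among so few genes does not set them apart. Some had few reads, such as CYP2E1 with 6 to 15. The MIR122 gene and its host transcript had 0 reads in all 4 libraries. Counts of exons of the annotated genome do not measure a hairpin placed in the vector, so the libraries hold no direct check of the miR-122 label.

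With miR-122, 582 genes were lower and 267 higher than with the empty vector at an adjusted p-value under 0.05, which is 4.06% and 1.86% of the genes tested and 5.92% together. The falls were larger than the rises: the median log2 fold change of the called genes was -0.335 for the lower and 0.23 for the higher. With genes whose replicates were over 10-fold apart left out, a fall of 2-fold or more was found for 29 genes. A rise of that size was found for 5 genes, with none left out. At the other end, 199 of the lower and 169 of the higher genes had moved by less than 1.2-fold. The count was 1597 without empty vector replicate 2, 773 without empty vector replicate 1, 319 without miR-122 replicate 1 and 423 without miR-122 replicate 2, and DESeq2's Wald test called 405. The median log2 fold change over all genes was 0.001.

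**Figure D1:**
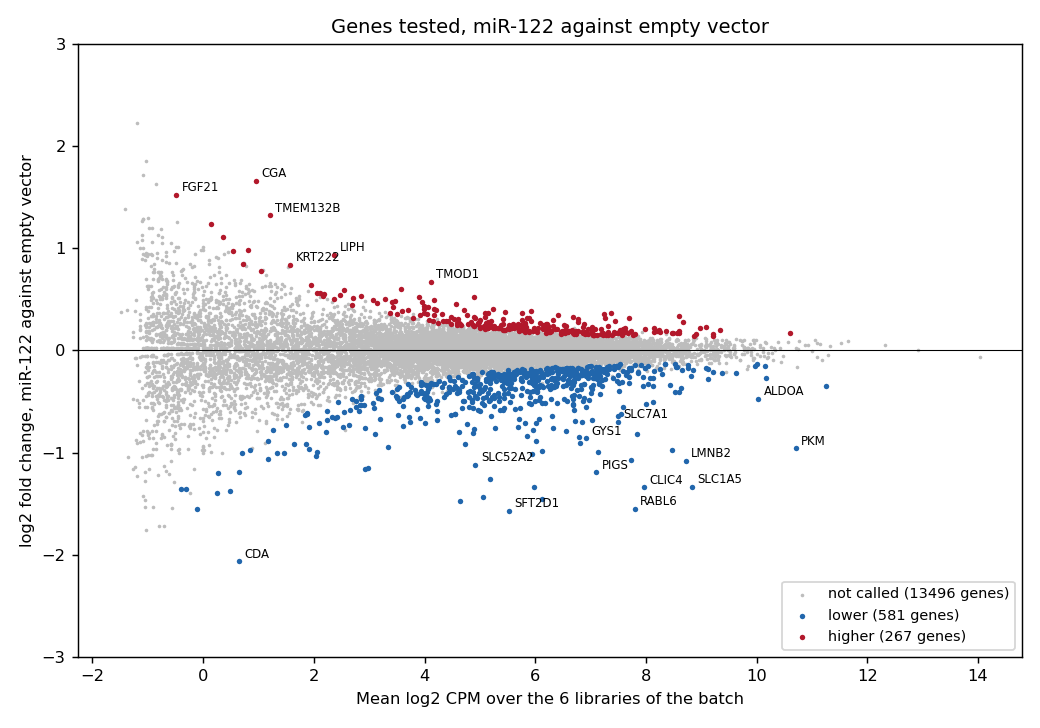
Log2 fold change of miR-122 against the empty vector (vertical axis) by mean log2 CPM over the 6 libraries of the batch (horizontal axis), with each point a gene, blue for called lower, red for called higher and grey for not called. Genes whose replicates were over 10-fold apart are not drawn. Labelled lower genes such as SLC1A5, LMNB2 and PKM were also among the highly expressed ones, whereas the largest rises (CGA, FGF21, TMEM132B) were in genes of low level.

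The genes that fell most had diverse roles. SFT2D1, a membrane protein of vesicle transport, was at 58.7 and 62 CPM with the empty vector and 20.3 and 20.4 CPM with miR-122 (log2 fold change -1.57, SE 0.0639, adjusted p 6.7e-13). RABL6, a Rab-like GTPase, was at 279 and 276 CPM against 97.1 and 92.2 CPM (-1.55, SE 0.0432, adjusted p 4.5e-15). ARL2, a small GTPase of tubulin folding, was at 80.4 and 90.8 CPM against 31.7 and 30.9 CPM (-1.45, SE 0.0628, adjusted p 1.7e-12); a readthrough transcript, ARL2-SNX15, shares exons with it. For each of these 3 genes the libraries of a group lay close together and the groups far apart, with fitted levels between 33.7% and 36.6% of the control.

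Among transporters and channels, SLC1A5, the glutamine transporter ASCT2, was at 572 and 585 CPM against 233 and 225 CPM, or 39.6% of the control level (log2 fold change -1.34, SE 0.0393, adjusted p 6.3e-15). SLC52A2, a riboflavin transporter, was at 35.7 and 36.6 CPM against 16.2 and 17.1 CPM (-1.12, adjusted p 8.7e-10). CLIC4, an intracellular chloride channel protein, was at 317 and 308 CPM against 123 and 124 CPM (-1.34, adjusted p 1.1e-14). Each was below 50% of the control level by the fit.

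GALNT3, which starts mucin-type O-glycans, was at 43.7 and 43.5 CPM against 16.7 and 15.7 CPM (log2 fold change -1.43, adjusted p 9.9e-12). PIGS, a subunit of the transamidase that attaches GPI anchors to proteins, went from 170.1 and 167 CPM to 71.5 and 75.8 CPM (-1.19, adjusted p 3e-13). Of nuclear and structural proteins, LMNB2, which codes for lamin B2, was at 497 and 485 CPM against 232 and 232 CPM (-1.08, adjusted p 1.5e-13). PCLAF, a PCNA-binding factor of DNA replication, was at 45.2 and 47.5 CPM against 19.2 and 19.5 CPM (-1.26, adjusted p 3.7e-11). TMEM216, a protein of the base of the cilium, was at 10.4 and 9.92 CPM against 4.48 and 4.67 CPM (-1.15, adjusted p 2.6e-06).

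G6PC3, the glucose-6-phosphatase that most tissues express, had no match to the seed in the 3′UTR, coding region or 5′UTR of its transcript model. G6PC3 was at 77.4 and 76 CPM with the empty vector against 29.8 and 31 CPM with miR-122 (log2 fold change -1.335, SE 0.0557, adjusted p 9.7e-13). Another of the 14 lowest genes, MIR3648, is a short annotated RNA gene with 7.44 and 3.78 CPM against 3.2 and 1.81 CPM (-1.16, adjusted p 0.02). Its lower control library and its higher miR-122 library were close, its reads may be shared with near-identical copies, and the call was lost with DESeq2's Wald test, without miR-122 replicate 2 and without empty vector replicate 1.

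**Figure D2:**
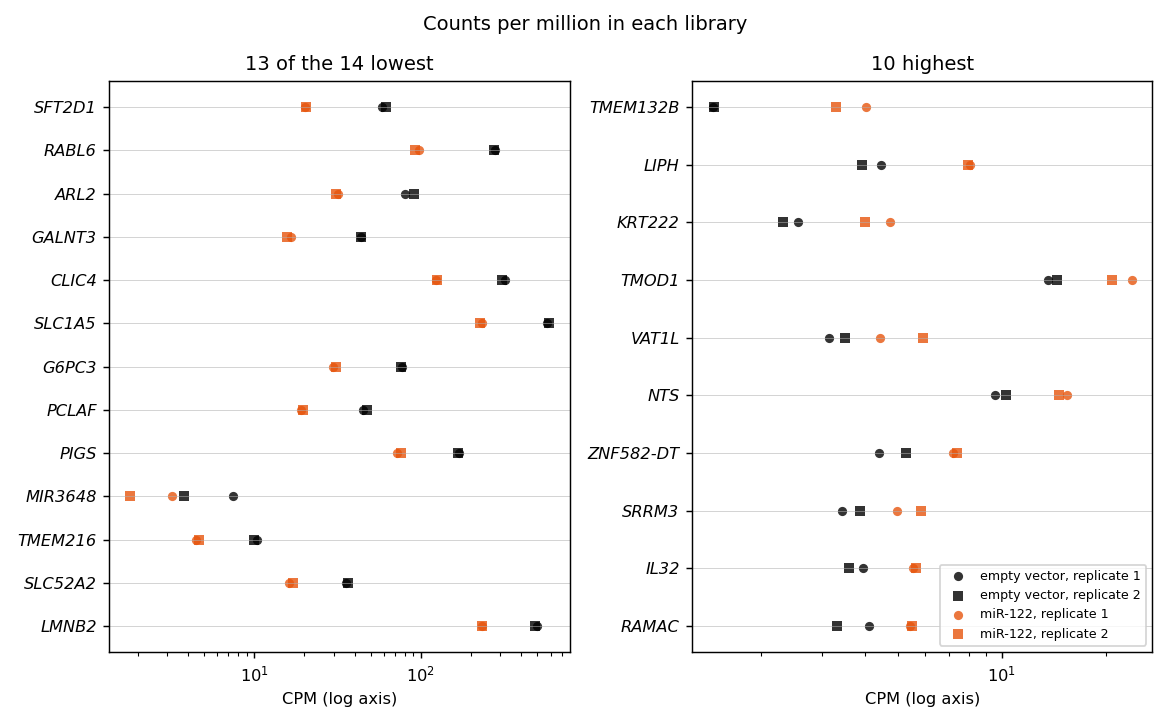
CPM on a log axis (horizontal) in each of the 4 libraries for 13 of the 14 lowest (left) and 10 highest (right) called genes whose mean log2 CPM was 1 or more, with black for the empty vector, orange for miR-122, circles for replicate 1 and squares for replicate 2. Genes were drawn only if the 2 groups did not overlap, and on the left the gap is narrowest for MIR3648.

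The largest rises were smaller than the largest falls and were in genes of low level, while the median log2 CPM of genes with a 3′UTR was 5.82 over the higher and 5.91 over the lower ones. TMEM132B, a membrane protein, was at 1.45 and 1.46 CPM with the empty vector and at 4.04 and 3.29 CPM with miR-122 (log2 fold change 1.32, SE 0.212, adjusted p 0.00035). LIPH, a lipase that makes lysophosphatidic acid, was at 4.45 and 3.92 CPM against 8.08 and 7.96 CPM (0.94, SE 0.157, adjusted p 0.00059). TMOD1, which caps actin filaments, was at 13.6 and 14.5 CPM against 23.8 and 20.9 CPM (0.67, adjusted p 3.7e-05), and NTS, the precursor of neurotensin, at 9.52 and 10.3 CPM against 15.5 and 14.7 CPM (0.60, adjusted p 0.00049). These 4 were called under every alternative setting. The other 6 of the 10 highest, which were KRT222, VAT1L, ZNF582-DT, SRRM3, IL32 and RAMAC, had log2 fold changes of 0.556 to 0.838 and each lost its call under at least 1 alternative. ZNF582-DT is noncoding, and none of the others had a match of 7 or 8 bases to miR-122 in its 3′UTR.

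A few genes below that level, named after their values were seen, changed more. CDA, cytidine deaminase, with an 8mer, was at 2.22 and 2.08 CPM against 0.394 and 0.62 CPM (log2 fold change -2.07, adjusted p 0.00021). CGA, the common subunit of glycoprotein hormones, was at 0.918 and 1.28 CPM against 3.5 and 3.48 CPM (1.66, adjusted p 0.00012). FGF21, a hormone that the liver secretes in fasting, was at 0.435 and 0.284 CPM against 1.13 and 0.953 CPM (1.52, adjusted p 0.026).

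Genes known as targets of miR-122 from liver and hepatoma work came next. Of 33 such genes tested, 14 were lower (42.4%, against 4.06% of all genes) and none higher, and 29 had a log2 fold change below 0. The median of the list was -0.185 against 0.001 over all genes. The list was put together with results of these data known, so the count is a description. PKM, pyruvate kinase of most dividing cells, was at 1860.2 and 1932 CPM against 972 and 978 CPM (log2 fold change -0.96, SE 0.0364, adjusted p 3e-13). GYS1, the glycogen synthase of muscle and most tissues, was at 140.4 and 134 CPM against 75.1 and 76.1 CPM (-0.86, adjusted p 5e-11). SLC7A1, the arginine and lysine transporter CAT-1, was at 212 and 199 CPM against 124 and 129 CPM (-0.70, adjusted p 1.5e-09). The fitted levels of the 3 with miR-122 were 51.4% to 61.6% of the control. The groups did not overlap for these 3 genes, but the same held for all 849 called genes and does not set the 3 apart.

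Further members that fell included CUX1, a homeobox repressor (log2 fold change -0.70), CTDNEP1, a nuclear envelope phosphatase (-0.59), PRKRA, a partner of Dicer (-0.57), ALDOA (-0.47), NDRG3 (-0.34), SRF, a transcription factor of growth and muscle genes (-0.24), PTPN1 (-0.22), IGF1R (-0.19), CCNG1 (-0.16) and AGPAT1 (-0.16). ALDOA, the aldolase of muscle and most dividing cells, was at 1080.2 and 1162 CPM against 816 and 799.5 CPM. SRF and the 4 named after it fell by less than 1.2-fold. ADAM10 (-0.12, adjusted p 0.15), ADAM17 (0.08, adjusted p 0.47) and RHOA (-0.01, adjusted p 0.94) are also on the list and were not called. Without a miR-122 library, 9 to 11 members were lower.

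**Figure D3:**
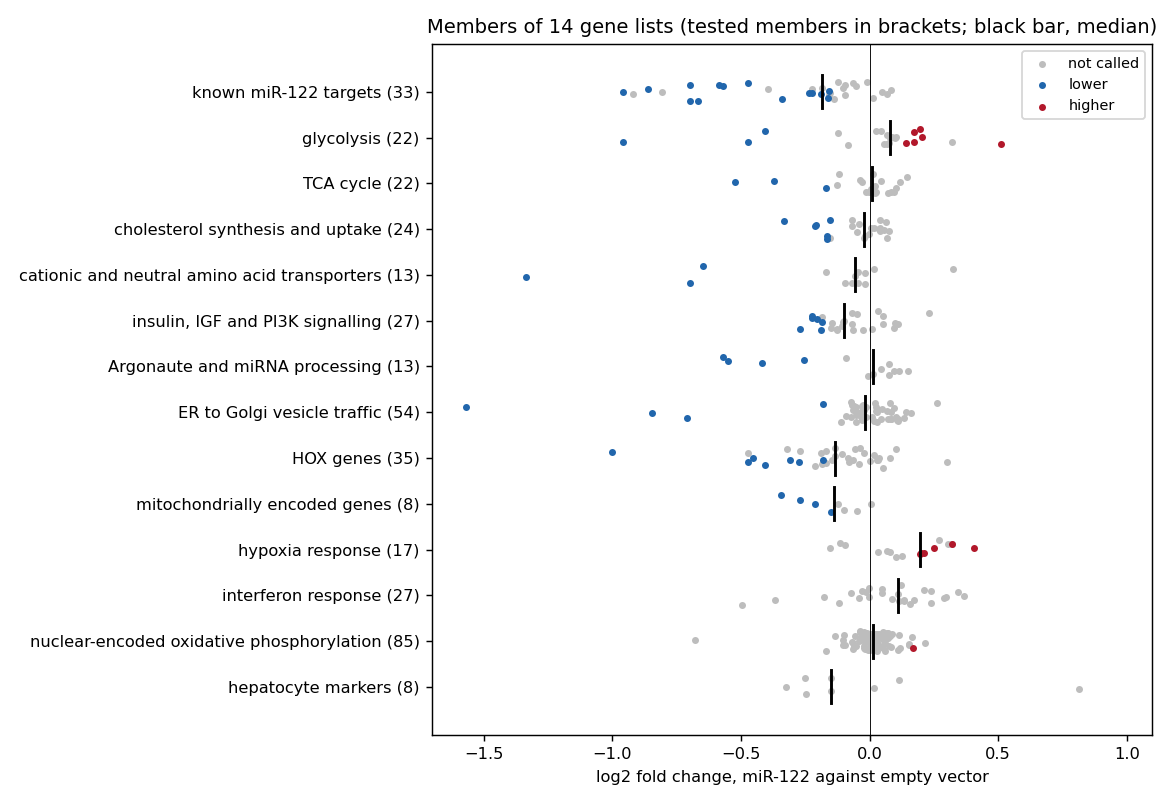
Log2 fold change of miR-122 against the empty vector (horizontal axis) for the tested members of 14 gene lists (rows, with the number tested in brackets), with blue for called lower, red for called higher, grey for not called and a black bar for the median. The known targets sit furthest to the left, with a median of -0.185, the hypoxia list furthest to the right, at 0.197, and most of the other medians lie near 0.

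Carbohydrate metabolism held changes in both directions. Of 22 glycolysis genes, 3 fell (PKM, ALDOA and PFKFB2) and 6 rose, with a median of 0.079. The shares were 13.6% lower and 27.3% higher, against 4.06% and 1.86% of all genes. PFKFB2, which sets the level of fructose 2,6-bisphosphate, was at 26.1 and 23.2 CPM against 17.7 and 19.5 CPM (log2 fold change -0.405, adjusted p 0.004). Of those that rose, 5 changed by little: PGK1 from 608 and 612 CPM to 729.5 and 674 CPM (0.20, adjusted p 0.0044), HK2, a hexokinase, from 93.6 and 89.2 CPM to 108.8 and 100.8 CPM (0.20, adjusted p 0.017), PFKL (0.17), ENO2 (0.17) and TPI1 (0.14). ALDOC, the brain aldolase and a paralog of ALDOA, was at 4.59 and 5.29 CPM against 7.19 and 6.91 CPM (0.51, adjusted p 0.026). The number of glycolysis genes that rose was 0 without miR-122 replicate 1 and 2 with DESeq2's Wald test, while the same settings left 2 and 3 that fell.

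Of 22 genes of glycogen metabolism, GYS1 and PHKA1, a regulatory subunit of phosphorylase kinase (log2 fold change -0.525, adjusted p 3.5e-07), fell, and GBE1, the branching enzyme, rose (0.29, adjusted p 0.022). That is 9.09% lower and 4.55% higher, against 4.06% and 1.86% of all genes. The TCA cycle had 3 of 22 genes lower and none higher. CS, citrate synthase, which carries a 7mer-m8, was at 262 and 265 CPM against 185 and 181 CPM (-0.525, SE 0.0401, adjusted p 1.7e-08). SUCLA2, a subunit of succinyl-CoA synthetase without a match in its 3′UTR, was at 82.9 and 82 CPM against 63.5 and 63.9 CPM (-0.37, adjusted p 3.4e-05). Without either miR-122 library 2 genes of the list were lower, and without empty vector replicate 2 there were 4.

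In lipid metabolism, 6 of 24 genes of cholesterol synthesis and uptake fell and none rose, with a median of -0.021. HMGCS1, a synthase of the early mevalonate pathway, was at 251 and 249 CPM against 221 and 209.9 CPM (log2 fold change -0.21, SE 0.0415, adjusted p 0.0025). ACAT2 (-0.21), IDI1 (-0.165) and SQLE (-0.15), which act earlier and later in the same route, also fell. None of the 6 had a match of 7 or 8 bases in its 3′UTR. Without miR-122 replicate 1 there were 2 lower genes on this list and without miR-122 replicate 2 there was 1. Of 30 genes of fatty acid and glycerolipid synthesis, 4 fell, led by the desaturases FADS1 (-0.36) and FADS2 (-0.25), and 1 rose (ME1, 0.16). In fatty acid oxidation none of 21 fell, and ACADVL (0.21) and HADH (0.21) rose.

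Amino acid transport changed through few genes. Of 13 transporters of cationic and neutral amino acids, SLC1A5, SLC7A1 and SLC7A5 fell and none rose, also when any 1 of the 4 libraries was left out (3 or 4 lower). SLC7A5, the light chain of the large neutral amino acid transporter LAT1, was at 204 and 204 CPM against 132 and 129 CPM (log2 fold change -0.65, SE 0.0423, adjusted p 1.5e-09). Transporters such as SLC38A2 (-0.06, adjusted p 0.49) and SLC38A1 (-0.045, adjusted p 0.6) were not called. Of 23 genes of the amino acid response, MTHFD2, the mitochondrial folate enzyme, and SLC7A5 fell, and ATF3 (0.21), TRIB3 (0.27) and DDIT4 (0.28) rose. MTHFD2 was at 279 and 291 CPM against 136 and 135 CPM (-1.07, SE 0.0413, adjusted p 3.1e-13). ATF4 and ASNS, the regulator and a well known target of that response, had log2 fold changes of 0.06 (adjusted p 0.46) and 0.06 (adjusted p 0.54). Over all 236 solute carriers tested, 13 fell and 4 rose, against 4.06% and 1.86% of all genes.

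In vesicle traffic between ER and Golgi, 4 of 54 genes fell (7.41%, against 4.06% of all genes) and none rose. Besides SFT2D1 they were YKT6, a SNARE protein, at 124 and 132 CPM against 69.8 and 72.3 CPM (log2 fold change -0.85, adjusted p 1.3e-10), TMED8 at 79.7 and 73.2 CPM against 46.7 and 46.7 CPM (-0.71, adjusted p 2.3e-08), and SEC22C (-0.18, adjusted p 0.046). All 4 had an 8mer. SEC22C was lost from the calls in most alternatives, among them DESeq2 size factors, the Wald test, the replicate block and either miR-122 library left out.

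Of 13 genes of Argonaute and miRNA processing, the machinery that miRNAs themselves use, 4 fell and none rose. The share lower was 30.8%, against 4.06% of all genes, and the median of the list was 0.012. DICER1, which cuts precursor hairpins, was at 220.4 and 197 CPM against 135 and 150.2 CPM (log2 fold change -0.55, SE 0.0568, adjusted p 1.6e-06), and PRKRA, its partner, at 46.2 and 47.9 CPM against 31.9 and 31.6 CPM (-0.57, adjusted p 1.4e-06). AGO2 was at 53.9 and 38.7 CPM against 33.7 and 35.4 CPM (-0.42, adjusted p 0.014). TNRC6A, the scaffold that recruits deadenylases, was at 148 and 142 CPM against 118 and 125 CPM (-0.25, adjusted p 0.0011). The call of AGO2, whose control libraries spread from 38.7 to 53.9 CPM, was lost with the Wald test and without either miR-122 library. Leaving out 1 library gave 2 to 5 lower genes on the list. AGO1 (0.04), AGO3 (0.08), DROSHA (-0.09) and XPO5 (-0.01) were not called.

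Of 27 genes of insulin, IGF and PI3K signalling, with a median of -0.099, none rose and 6 fell (22.2%, against 4.06% of all genes). They were FOXO3 (log2 fold change -0.27, adjusted p 0.00092), PIK3R3 (-0.225), PTPN1 (-0.22), GRB10 (-0.20), IGF1R (-0.19) and RPTOR (-0.19), all at 82.8% of the fitted control level or above. Receptors, kinase subunits, inhibitors and a transcription factor were all among them. Leaving out 1 library gave 2 to 10 lower genes on this list.

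Among cell cycle genes, KIF11, the mitotic motor with 3 matches, fell from 205 and 205 CPM to 128 and 139 CPM (log2 fold change -0.62, adjusted p 8.4e-09), while CCND2, cyclin D2, rose from 148 and 149.7 CPM to 188 and 193 CPM (0.36, SE 0.041, adjusted p 6.3e-06). Counting KIF11, 2 of 37 genes of DNA replication and mitosis fell and 2 rose (5.41% and 5.41%). Counting CCND2, of 34 cyclins and cyclin-dependent kinases 2 fell and 1 rose (5.88% and 2.94%). Over all genes tested the shares were 4.06% lower and 1.86% higher. Among p53 response genes, CDKN1A (-0.32), MDM2 (-0.17) and CCNG1 fell while FAS (0.26) and TNFRSF10B (0.22) rose, out of 21 (14.3% and 9.52%).

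HOX genes, which set positional identity, had 7 of 35 lower (20.0%, against 4.06% of all genes) and none higher. Their median was -0.133, with 27 of 35 below 0. HOXA13 was at 136 and 127 CPM against 94.9 and 94.5 CPM (log2 fold change -0.47, SE 0.0488, adjusted p 1.7e-06) and HOXC13 at 31.6 and 31.5 CPM against 22.5 and 23.6 CPM (-0.45, adjusted p 0.00014). HOXD1, at 2.71 and 2.74 CPM against 1.08 and 1.62 CPM (-1.003, adjusted p 0.021), changed most but from a low level. HOXA6 (-0.41), HOXA5 (-0.31), HOXC9 (-0.275) and HOXB9 (-0.18) were the others, so all 4 clusters had a member that fell. Leaving out 1 library gave 2 to 9 lower HOX genes and none higher, and the median stayed between -0.134 and -0.096.

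Of 17 genes of the response to hypoxia, 6 were higher (35.3%, against 1.86% of all genes) and none lower. The median was 0.197, which was 0.116 without miR-122 replicate 1 and 0.143 without empty vector replicate 2. P4HA2, a collagen prolyl hydroxylase, was at 33.9 and 33.4 CPM against 47.3 and 41.9 CPM (log2 fold change 0.405, adjusted p 0.00035). NDRG1 was at 190.3 and 185 CPM against 246 and 222 CPM (0.32, adjusted p 0.00017). PDK1, which holds pyruvate out of the TCA cycle, was at 66 and 55.9 CPM against 74.4 and 70.4 CPM (0.25, adjusted p 0.027), and BNIP3 (0.21), BNIP3L (0.20) and HK2 (0.20) were the others. VEGFA (0.03, adjusted p 0.81), LDHA (0.10, adjusted p 0.14) and SLC2A1 (0.10, adjusted p 0.28) were not called. The number of genes higher was 2 to 5 when 1 library was left out, and 2 with the Wald test, which were P4HA2 and NDRG1. Oxygen was not varied in the study.

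Mitochondrially encoded genes had 4 of 8 lower and none higher, with a median of -0.137. MT-CYB, a subunit of complex III, was at 2789 and 2942 CPM against 2277 and 2234 CPM (log2 fold change -0.345, SE 0.0365, adjusted p 2.2e-06), and MT-ND2, of complex I, at 1362 and 1467 CPM against 1187 and 1161 CPM (-0.27, adjusted p 0.00014). MT-ND6 (-0.21) and MT-ND1 (-0.15) also fell. The number of lower genes was 2 without either miR-122 library and 6 without empty vector replicate 1. MT-CO1, of complex IV, was at 7815 and 8032 CPM against 8164 and 7751 CPM (0.01, adjusted p 0.96). With miR-1 MT-CYB was at 2199.7 and 2214 CPM, and the direct difference of miR-122 from miR-1 was 0.03 (SE 0.0365, adjusted p 0.55). For MT-ND2, which was lower with miR-1 than with miR-122, the direct difference was 0.389 (SE 0.0398, adjusted p 4.4e-07). Of the 8 genes, 6 were higher with miR-122 than with miR-1 and none lower. Of the 85 nuclear genes of oxidative phosphorylation, none fell and 1 rose (NDUFV1, 0.17).

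Several lists held few or no called genes. None of 27 interferon response genes was called in either direction (median 0.112, with 17 above 0), nor were any of 16 clustered protocadherins or 8 snoRNA host genes. Over all genes tested 4.06% were lower and 1.86% higher, so lists this small can hold no called gene without differing from other genes. Only 2 of the protocadherins had more than 1 CPM in every library. Of the 78 cytosolic ribosomal protein genes left once those with replicates over 10-fold apart were set aside, 1 was lower. It was RPS10 (log2 fold change -0.49, adjusted p 0.0019), which shares exons with a readthrough transcript and has processed copies. The number of ribosomal protein genes called higher was 0 here and 21 without empty vector replicate 2. Of 438 zinc finger genes named ZNF, 11 were lower and 3 higher, which is 2.51% and 0.685%. Among 66 collagens, laminins and integrins, 6 fell, among them ITGA9 at 6.33 and 5.58 CPM against 2.86 and 3.1 CPM (-0.997, adjusted p 0.00033), and ITGA5 (0.23) and ITGAV (0.18) rose. Genes of the oncofetal liver program, which fetal and tumour liver share, gave PEG10 lower (-0.225, adjusted p 0.0013) and HMGA2 (0.21) and LIN28B (0.21) higher, of 11.

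By annotated type, 574 of 13218 protein-coding genes were lower (4.34%) and 258 higher (1.95%). Of 706 long noncoding RNA genes, 1 was lower and 7 were higher, with a median log2 fold change of 0.049.

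Matches to the seed were more frequent among the lower genes than among all genes. Among the 569 lower genes with an annotated 3′UTR, 60.5% had an 8mer, 7mer-m8 or 7mer-A1 match there (95% Wilson interval 56.4% to 64.4%, which covers counting error only), against 15.1% of the higher genes and 25.4% of all genes tested with a 3′UTR. With 8mers and 7mer-m8s alone the share was 42.4% of the lower genes, 5.43% of the higher genes and 9.51% of all genes tested with a 3′UTR. Of 484 genes with an 8mer, 25.6% were lower and 1.24% higher, with a median log2 fold change of -0.118. Of 770 genes whose strongest match was a 7mer-m8, 15.2% were lower, with a median of -0.077. The 7mer-A1 (2090 genes, 4.93% lower, median -0.01) and the 6mer (1825 genes, 4.88% lower, median -0.014) could not be told from each other by these shares, and genes with no match had 1.7% lower, 2.43% higher and a median of 0.016.

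**Figure D4:**
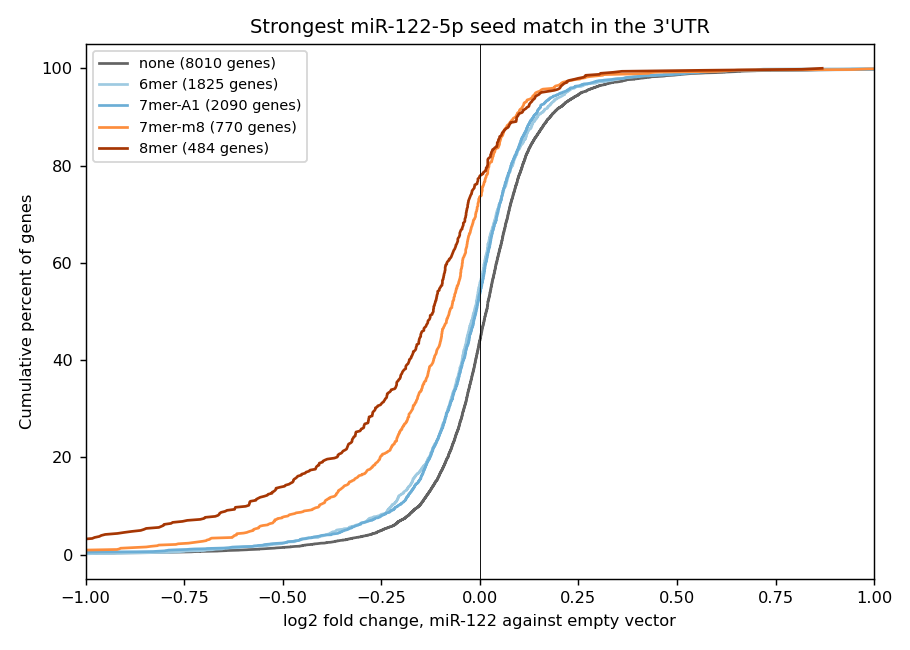
Cumulative percent of genes (vertical axis) by log2 fold change of miR-122 against the empty vector (horizontal axis, cut at -1 and 1), with a line for each class of strongest miR-122 match in the 3′UTR. The lines of the 8mer and 7mer-m8 lie to the left of the others, with medians of -0.118 and -0.077, and those of the 7mer-A1 and 6mer run almost together. Genes whose replicates were over 10-fold apart are left out.

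Most genes with an 8mer were therefore not called: 354 of 484 did not pass the threshold, AGO1 among them. HMGA2 and PDK1 carried an 8mer and rose. The lower genes had longer 3′UTRs (median 2477 bases) than the higher genes (1185 bases) and the genes not called (1488 bases). With the genes divided by 3′UTR length into short, middle and long groups of equal size, the share of 8mer genes called lower was 34.7%, 33.0% and 21.6%, against 1.02%, 1.96% and 2.88% of the genes with no match. The share of lower genes was 8.99% with 1 match of 7 or 8 bases, 13.8% with 2, 11.2% with 3 (24 genes) and 17 of 121 genes with 4 or more, against 2.29% with none.

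Many 7mer-A1 matches stood in the run CTGCACTCCAGCC, which the consensus of Alu repeats contains on 1 strand. This run stood in 1216 of the 19237 annotated 3′UTRs searched on the strand of the gene (6.32%) and made up 1494 of 4471 7mer-A1 matches. Among genes with a 7mer-A1 as strongest match, 3.12% of the 544 with every such match in the run were lower, with a median log2 fold change of 0.01, against 5.81% of the 1308 with none in it, with a median of -0.018. The 1 match of PCLAF, which was at 41.7% of the control level, is a 7mer-A1.

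For genes with a single match in the 3′UTR, the bases around it went with the change. Where over 65% of the 30 bases on either side were A or T, 36.8% of 38 genes with an 8mer and 26.8% of 71 with a 7mer-m8 were lower. Where at most 50% were, the shares were 19.7% of 137 and 10.0% of 239. Pairing of 3 or 4 bases opposite positions 13 to 16 of miR-122 was present in only 15 genes with a single 8mer, of which 4 were lower (26.7%, against 25.3% of the 249 others).

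Matches in the coding region were considered next. Among genes with no match in the 3′UTR, 9.80% of 204 with an 8mer in the coding region were lower (median log2 fold change -0.067), 3.23% of 341 with a 7mer-m8 and 1.21% of 5788 with none. Among genes with long coding regions these were 13.7% of 131 and 1.15% of 1386 for an 8mer and for none, among those of middle length none of 50 with an 8mer was lower, and among short ones 2 of 23 were (8.70%, against 1.44% of 2506 with none). Of the 569 lower genes, 147 had no match of 7 or 8 bases in 3′UTR, coding region or 5′UTR, G6PC3 among them, and 61 of the 103 that fell by more than 1.5-fold had an 8mer or 7mer-m8 in the 3′UTR. Genes with an 8mer in the 3′UTR to the other strand of the hairpin, miR-122-3p, and no match there to miR-122-5p numbered 29. Of these 1 was lower (3.45%). With a 7mer-m8 to miR-122-3p 4.31% of 116 were lower, with a 7mer-A1 3.92% of 51 and with a 6mer 3.04% of 427. Genes with no match to either strand had 1.56% of 7390 lower. These shares were not divided by 3′UTR length, and the cause was not tested.

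The miR-1 libraries gave a second reference for the same genes, with another miRNA in the same vector. Compared directly, 2188 genes were lower with miR-122 than with miR-1 and 2293 higher, or 15.2% and 16.0% of the genes tested and 31.2% together. The direct log2 difference (miR-122 minus miR-1) was -1.635 for RABL6 (SE 0.0431, adjusted p 1.6e-15), -1.49 for SFT2D1 (adjusted p 9.6e-13), -1.35 for CLIC4 (adjusted p 9.1e-15), -1.41 for G6PC3 (adjusted p 1.9e-13) and -1.14 for PKM (adjusted p 1.3e-14). In the miR-1 libraries RABL6 was at 297 and 292 CPM, SFT2D1 at 55.2 and 59 CPM and PKM at 2169 and 2123 CPM, so all 3 stayed near or above the empty vector. CGA was higher with miR-122 than with miR-1 by 1.87 (adjusted p 1.2e-05) and TMEM132B by 1.29 (adjusted p 0.00012).

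For other genes the direct test between the miRNAs did not pass the threshold. The direct difference was -0.05 for NDRG3 (adjusted p 0.57), 0.05 for PTPN1 (adjusted p 0.45), -0.11 for HMGCS1 (SE 0.0416, adjusted p 0.055) and -0.15 for ITGA9 (SE 0.179, adjusted p 0.57). Of the genes that rose, HK2 (-0.03, adjusted p 0.67), ALDOC (-0.06, adjusted p 0.77) and PDK1 (-0.10, adjusted p 0.26) had no called difference between miR-122 and miR-1, and P4HA2 had one (0.39, adjusted p 0.00013). Of 35 HOX genes, 18 were lower with miR-122 than with miR-1 and none higher. Among 27 genes of insulin, IGF and PI3K signalling, 14 were lower and none higher. For cholesterol synthesis and uptake, 10 of 24 genes were lower with miR-122 than with miR-1 and none higher. Against the empty vector, 7, 6 and 6 members of these lists were lower. The direct difference also holds any change of miR-1 from the empty vector, such as 0.196 for PIK3R3 and -0.271 for PTPN1.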

How the data were processed

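Samples were grouped by their GEO labels. The authors trimmed reads, aligned them to hg19 with TopHat2 2.1.1, counted reads over exons by strand with featureCounts and deposited raw counts per gene and library without normalization. The authors' own tables of fold changes and p-values, from edgeR 3.24.3 and from a model combining RNA-seq with nascent transcription, and the counts of the second batch, which holds no miR-122 library, were not used.

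Counts of all 6 libraries of the batch were fitted in R 4.3.3 with edgeR 4.0.16 (filterByExpr with a minimum count of 10, TMM factors, quasi-likelihood test with group as the factor). P-values are two-sided and Benjamini-Hochberg adjusted over all 14348 genes tested, with a threshold of 0.05. Standard errors were derived from the log2 fold changes and their F statistics, and fold changes use a prior count of 0.125. The 6 libraries leave 3 residual degrees of freedom. CPM values use the TMM-scaled totals, and percent of the control level is the fitted fold change.

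Gene identifiers were matched to GENCODE 44 on GRCh37 (28543 of 29794 matched), and the longest annotated 3′UTR of each gene was searched for matches. All 131 site windows of named genes equalled the GRCh37 sequence. Named genes were the 14 lowest and 10 highest called genes whose mean log2 CPM over the 4 libraries was 1 or more and whose groups did not overlap, up to 4 called members of each of 47 gene lists with the largest change, and every tested known target. The comparison, the lists and the members were chosen with earlier results of these data known. Lists are described by counts and medians without a test, and 4 genes with replicates over 10-fold apart were left out of them. Some genes are not reported here by name but are included in the counts. The fits were tested on simulated data. Alternatives were DESeq2 1.42.0 (size factors and Wald test), edgeR's likelihood ratio test, other filters, only the 2 groups compared, the replicate block, a fold change threshold of 0.2 on the log2 scale, and each library left out.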

Additional observations from a re-analysis of the deposited data

How the results depend on the processing

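No named gene changed direction in 1647 comparisons with alternative settings for miR-122 against the empty vector. Of 131 named genes called, 58 were called under every alternative, among them 13 of the 14 lowest and 4 of the 10 highest. A call was lost for 73 without a miR-122 library, for 38 without an empty vector library, for 51 with DESeq2's Wald test and for 24 with the replicate block. When a group was down to 1 library, that library was assumed to vary like those of the other groups.

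Counts of called genes for miR-122 against the empty vector ranged from 319 to 1597 when 1 library was left out, from 262 to 1086 for lower genes and from 57 to 511 for higher genes. DESeq2's Wald test gave 405, with 316 lower and 89 higher. The replicate block gave 656, with 480 lower and 176 higher; the replicate numbers did not pair the libraries (correlation of deviations -0.0695 between the empty vector and miR-122 and 0.00687 between miR-1 and miR-122). For miR-122 against miR-1 the counts were 2564 to 2996 when 1 library was left out, 1223 to 1408 lower and 1341 to 1588 higher. The Wald test gave 2542, with 1282 lower and 1260 higher, a threshold of 0.2 on the log2 fold change gave 1420 lower, and the block gave 3958. The cause was not tested. The share of lower genes with a match was 56.4% with the transcript of longest coding region and 61.5% at a mean log2 CPM of at least 3. Of the called genes, 82.1% were lower without miR-122 replicate 1 and 68.6% with all libraries.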

Other observations

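A pair of abundant cytoskeletal and cytokinesis genes outside the lists, named after their values were seen, fell by about as much as PKM. SEPTIN2, a filament protein of cytokinesis with an 8mer, was at 443 and 441 CPM with the empty vector and 219.7 and 229 CPM with miR-122 (log2 fold change -0.98, edgeR adjusted p 6.3e-13). CEP55, which directs the final cut between daughter cells and also has an 8mer, was at 84 and 87.3 CPM against 42.1 and 44.6 CPM (-0.98, adjusted p 6.6e-11). Both were also lower with miR-122 than with miR-1, by 0.84 (adjusted p 3.9e-12) and 0.89 (adjusted p 1.9e-10) on the log2 scale.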
